A study of Mus musculus with 4 samples.

Results

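The 9 genes described here encode nuclear receptors that bind retinoids, sterols or steroids, or are close relatives of such receptors: Nr1h3, Pparg, Rara, Rxra, Vdr, Nr3c1, Rora, Nr1d1 and Nr1d2. They were taken as a list of gene names, each read from the brightest probe set annotated to that gene alone, and all 9 were found among 19938 genes with such a probe set. Each of the 9 had a single probe set. Expression was compared between 2 Affymetrix arrays labelled Id2 KO, from splenic cDC2 of Id2 KO Zbtb46-GFP chimeric mice, and 2 labelled WT, from splenic cDC2 of Zbtb46-GFP chimeric mice. The sample labels give spleen as the tissue, while the design text says both splenic and from bone marrow. Both groups are labelled with the Zbtb46-GFP reporter. No treatment, age or sex is named, and the sources used here do not give how the chimeras were made, which cells the host kept or what part of Id2 is deleted. Type 2 conventional dendritic cells (cDC2) are antigen-presenting cells that carry Sirpa. Id2 pairs with E proteins, a class of helix-loop-helix factors, and keeps them off DNA. Nothing states that the replicates of a group came from separate mice, so p-values here reflect only how far these samples differ from each other, possibly for technical reasons.

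Values are log2 intensities, so that a difference of 1 is a 2-fold change, and they are compared within a gene, never between genes. Only genes whose mean exceeded 6.77, the 40th percentile, were tested, and a gene is said to have risen or fallen where limma's p-value adjusted over all 11963 tested genes was below 0.05. Of these genes 8.04% passed, 5.53% as higher and 2.52% as lower with Id2 KO. Array medians of the linear intensity were 128.4 and 132.3 in Id2 KO, against 134.4 and 130.0 in WT. Id2 was at 8.71 and 8.97 in the Id2 KO-labelled arrays, against 9.14 and 9.08 in WT, and did not pass (adjusted p = 0.172), but passed without Id2 KO replicate 2 (-0.40, adjusted p = 0.0326). The cDC2 markers differed between the groups themselves: of 10, 8 were tested, Itgam, Cd4 and Clec4a2 fell (by 0.998, 0.84 and 0.41, adjusted p = 0.00479, 0.00323 and 0.0151), Esam rose (by 0.53, adjusted p = 0.0155), and Sirpa, Irf4, Cd209a and Clec4a4 did not pass. The call of Esam was lost without WT replicate 1 (adjusted p = 0.12), and that of Clec4a2 without WT replicate 1, WT replicate 2 or Id2 KO replicate 1 (adjusted p up to 0.131). Those 8 lay above 6.77 on all 4 arrays, and Clec10a and Mgl2 below it on all 4. Zbtb46, the gene of the reporter, was at 6.49 and 6.59 in Id2 KO, against 7.57 and 7.55 in WT, and fell by 1.02 (adjusted p = 1.35e-04). It is 1 of 8 listed conventional dendritic cell markers, all tested, of which 1 fell, 1 rose and 6 did not pass. Those 6 were Itgax, Flt3, Dpp4, H2-Ab1, Cd74 and Batf3. The summed linear intensity of the 8 was 41110 and 43760 in Id2 KO, against 41690 and 42040 in WT. Xist was at 6.67 and 6.68 in Id2 KO, against 11.96 and 11.96 in WT, and Y-linked Kdm5d at 8.08 and 8.50 in Id2 KO, against 5.72 and 5.53 in WT, so genotype and these sex-linked levels cannot be told apart in what follows.

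Nuclear receptors are transcription factors with a zinc-finger DNA-binding region, and most are switched by a small lipid-soluble ligand. RXRα (Rxra) pairs with RARα (Rara), LXRα (Nr1h3), PPARγ (Pparg) and the vitamin D receptor (Vdr), whereas the glucocorticoid receptor (Nr3c1) acts mainly without it. RORα (Rora) activates, and REV-ERBα (Nr1d1) and REV-ERBβ (Nr1d2) repress, a shared set of elements, among them those in the promoter of the clock gene Arntl. In mouse spleen, retinoic acid helps maintain a subset of CD11b-bearing dendritic cells, and LXRα is needed for marginal zone macrophages.

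Promoter windows of 300 bases (RefSeq sequence, assembly GRCm38.p6) were found for 8 of the 9 genes, all but Nr3c1, with 15 windows in all because some genes have several start sites. Each was searched on both strands. The E-box CANNTG, the kind of site that E proteins bind, was in 10 of these 15 windows and in 72.3% of all 32851 promoter windows. Its form CACGTG, which the clock factors CLOCK and ARNTL bind and which is counted within CANNTG too, was in 2 of the 15, both overlapping windows of Rara, and in 7.15% of all. The receptor core motif AGGTCA was in 5 of the 15, from Nr1d2, Pparg, Rara and Rxra, and in 16.3% of all. None of the 15 held the ROR and REV-ERB element (AGGTCA directly preceded by AANT), which was in 0.219% of all windows. None held AGGTCA repeated with 1, 4 or 5 bases between the copies, or the glucocorticoid element (GNACA and TGTNC with 3 bases between), which was in 0.475% of all. A match describes the letters and not a bound site.
The windows below were chosen after the values were seen. They show the promoters of both REV-ERB genes, of Rara, and of Arntl, the textbook target of the REV-ERBs and RORα. Capitals mark CANNTG in Nr1d1, AGGTCA in Nr1d2, CACGTG in Rara, and the ROR and REV-ERB element in Arntl.
Nr1d1 (chr11:98775328-98775627, minus strand): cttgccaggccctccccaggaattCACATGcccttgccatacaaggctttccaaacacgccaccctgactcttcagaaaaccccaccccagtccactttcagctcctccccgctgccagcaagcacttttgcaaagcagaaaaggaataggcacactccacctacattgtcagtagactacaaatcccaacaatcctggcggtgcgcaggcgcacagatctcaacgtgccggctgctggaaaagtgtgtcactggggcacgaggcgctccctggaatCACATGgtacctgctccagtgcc
Nr1d2 (chr14:18239057-18239356, minus strand): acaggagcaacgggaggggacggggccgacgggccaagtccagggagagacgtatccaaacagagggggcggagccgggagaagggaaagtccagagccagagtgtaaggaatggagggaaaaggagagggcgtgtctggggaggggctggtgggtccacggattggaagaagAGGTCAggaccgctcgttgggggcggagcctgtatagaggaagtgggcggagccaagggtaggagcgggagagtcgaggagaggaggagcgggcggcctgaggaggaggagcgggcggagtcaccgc
Rara (chr11:98937446-98937745, plus strand): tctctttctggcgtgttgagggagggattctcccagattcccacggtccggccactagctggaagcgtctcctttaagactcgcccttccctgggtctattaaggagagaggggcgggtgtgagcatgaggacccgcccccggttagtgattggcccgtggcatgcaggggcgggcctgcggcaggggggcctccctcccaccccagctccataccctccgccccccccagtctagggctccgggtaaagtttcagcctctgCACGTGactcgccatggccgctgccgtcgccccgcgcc
Arntl (chr7:113207261-113207560, plus strand): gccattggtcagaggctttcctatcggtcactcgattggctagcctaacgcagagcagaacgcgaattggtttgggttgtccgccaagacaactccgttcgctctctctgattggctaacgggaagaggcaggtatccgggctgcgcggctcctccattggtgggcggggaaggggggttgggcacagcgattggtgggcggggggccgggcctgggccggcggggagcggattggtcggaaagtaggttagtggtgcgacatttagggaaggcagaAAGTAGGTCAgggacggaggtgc
Both E-boxes of Nr1d1 read CACATG, 1 beginning 226 bases before and 1 beginning 27 bases after the start site. AGGTCA in Nr1d2 begins 77 bases before it, CACGTG in Rara 12 bases after it, and the Arntl element, read AAGTAGGTCA, 27 bases after it.

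None of the 9 receptor genes passed the test. Pparg and Vdr lay below the filter on all 4 arrays, and of the 7 tested genes 0 rose and 0 fell in limma, beside 8.04% of all tested genes that passed. Of the 7, 1 (Nr1d1) had an unadjusted p below 0.05, a level that 20.7% of all tested genes reached. In 4 of the 7 the groups did not overlap, near the 50.7% of all tested genes for which this held. Their median difference was 0.0051, beside 0.0071 over all tested genes. The widest changes within the 95% intervals of the 7, which are not adjusted for the number of genes, were 1.31-fold lower for Nr1d1 and 1.21-fold higher for Nr1h3. In 5 of the 9 genes the replicates of a group lay farther apart than the group means.

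**Figure D1:**
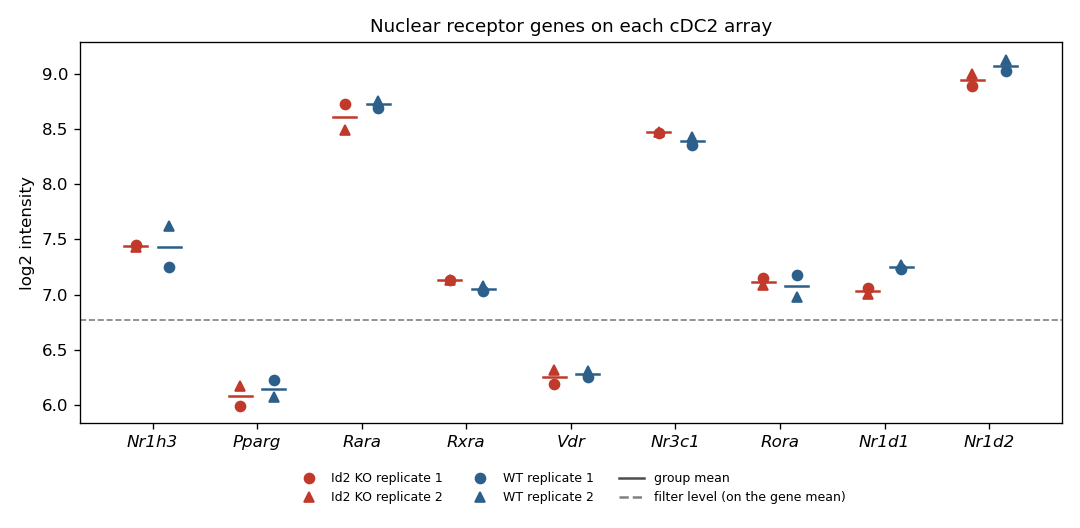
Log2 intensity (vertical axis) of the 9 receptor genes on each array, Id2 KO in red left of WT in blue, with group means as short lines and the filter level of 6.77 dashed. Nr1d1 and Nr1d2 sit lower on both Id2 KO arrays than on either WT array, Nr1h3 has its widest gap between the WT replicates, and Pparg and Vdr lie below the filter level.

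The REV-ERB genes had the lowest differences of the 9 (gene spans here and below are those of GRCm38.p6). Nr1d1 (chr11:98767932-98775377), which encodes a haem-binding repressor of clock and metabolic genes, was at 7.06 and 7.01 in the Id2 KO-labelled arrays, against 7.23 and 7.26 in WT. Both Id2 KO arrays lay below both WT arrays, by a mean of -0.21 (95% interval -0.39 to -0.033), which did not pass after adjustment (limma, adjusted p = 0.164). Nr1d2 (chr14:18204056-18239106), which encodes its close relative with overlapping roles, was at 8.89 and 8.998 in Id2 KO, against 9.02 and 9.13 in WT. The groups again did not overlap, by a narrow margin, and the difference of -0.13 (95% interval -0.33 to 0.064) did not pass (adjusted p = 0.451). It was -0.078 without WT replicate 2 and -0.077 without Id2 KO replicate 1. Rora (chr9:68653404-69388246), the activating counterpart, was at 7.15 and 7.09 in Id2 KO, against 7.18 and 6.98 in WT. Its Id2 KO values lay between the WT values (difference 0.040, 95% interval -0.17 to 0.25, adjusted p = 0.861). The difference was 0.14 without WT replicate 1, -0.058 without WT replicate 2, 0.0082 without Id2 KO replicate 1 and 0.072 without Id2 KO replicate 2. The annotated spans of Nr1d1 and its neighbour Thra overlap by 1075 bases, and where the probes lie is not given in the sources used here. Thra, a thyroid hormone receptor gene, had a mean below the filter and was at 6.65 and 6.72 in Id2 KO, against 6.83 and 6.74 in WT.

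No clock gene passed. Of 22 genes of the clock list 19 were measured and 17 tested, and 0 passed in limma in either direction. An unadjusted p below 0.05 was reached by 3 of the 17, beside 20.7% of all tested genes, and the median difference was -0.008. Those 3 were Nr1d1 itself, Per2, whose product represses CLOCK and ARNTL, and Ciart, another clock repressor gene. Per2 was at 7.75 and 7.72 in Id2 KO, against 7.97 and 7.95 in WT, lower without overlap (difference -0.23, adjusted p = 0.135). Ciart was at 7.82 and 7.94 in Id2 KO, against 7.49 and 7.73 in WT, in the opposite direction (difference 0.27, adjusted p = 0.173). Arntl, which the REV-ERBs repress and whose element is printed above, was at 8.31 and 8.30 in Id2 KO, against 8.22 and 8.34 in WT. Its Id2 KO values lay between the WT values (difference 0.026, 95% interval -0.16 to 0.21). Nfil3, a factor gene that REV-ERBα represses in mouse T cells, was at 10.02 and 9.64 in Id2 KO, against 9.62 and 9.70 in WT, with its Id2 KO replicates farther apart than the groups (difference 0.18, adjusted p = 0.479). Tef, an output factor gene, differed by -0.18 and did not pass (adjusted p = 0.339). The sources used here give no time of day for the samples.

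The retinoid receptor genes did not pass either. Rara (chr11:98927800-98974942), which encodes the main retinoic acid receptor of blood cells, was at 8.72 and 8.49 in the Id2 KO-labelled arrays, against 8.69 and 8.76 in WT. Replicate 1 of Id2 KO lay between the WT arrays and replicate 2 below them, so the groups overlapped. The difference was -0.12 (95% interval -0.34 to 0.10, adjusted p = 0.559), but -0.0031 without Id2 KO replicate 2 and -0.23 without Id2 KO replicate 1. Rxra (chr2:27676445-27763319), the common partner, was at 7.13 and 7.13 in Id2 KO, against 7.03 and 7.08 in WT. Both Id2 KO arrays were slightly higher (difference 0.075, 95% interval -0.10 to 0.25, adjusted p = 0.666), by 0.021 with arrays centred on the tested genes. Of the related genes, Rxrb differed by 0.11 (adjusted p = 0.486) and Rarg by -0.18 (adjusted p = 0.24).

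Of 20 listed genes of retinoid metabolism and retinoic acid response 19 were measured and 11 tested. None of the 11 passed in limma, and their median difference was -0.013. Of the 11, 1 (Rarg) had an unadjusted p below 0.05, beside 20.7% of all tested genes. Tgm2, a transglutaminase gene that retinoic acid induces, was at 11.62 and 11.53 in Id2 KO, against 11.49 and 11.61 in WT. Dhrs3, a retinaldehyde-reducing enzyme gene that retinoic acid also induces, was at 10.08 and 10.25 in Id2 KO, against 10.12 and 10.15 in WT. In both genes the groups overlapped. Aldh1a2, which encodes an enzyme that makes retinoic acid, was at 6.68 and 6.55 in Id2 KO, against 6.39 and 6.16 in WT, higher in both Id2 KO arrays but below the filter, and did not pass without a filter (adjusted p = 0.137).

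**Figure D2:**
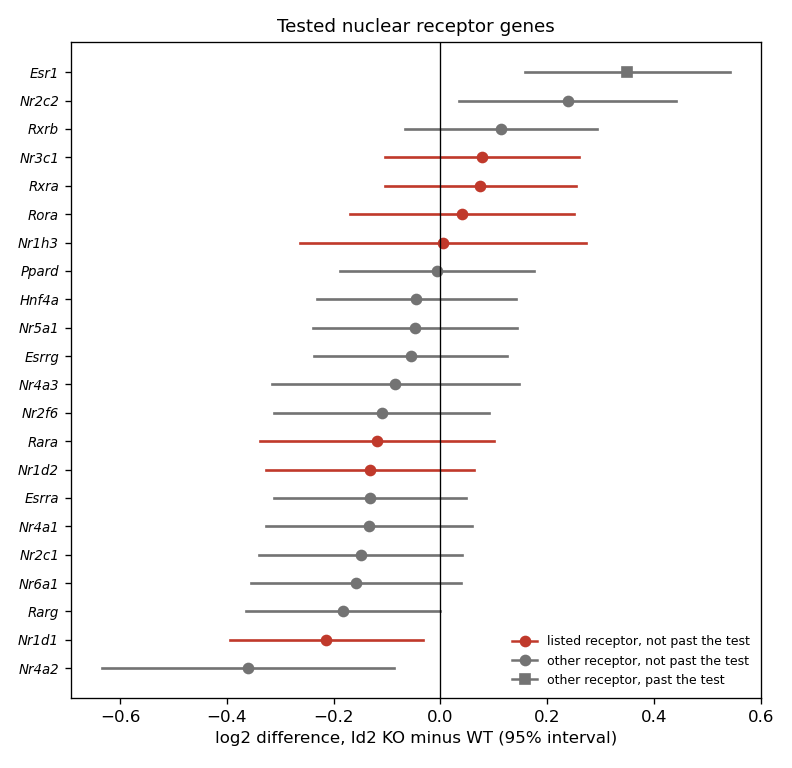
Log2 difference, Id2 KO minus WT, with its 95% interval (horizontal axis) for the 22 tested nuclear receptor genes, the listed receptors in red and the others in grey. The 7 listed receptors that were tested lie between -0.21 and 0.079, only the interval of Nr1d1 among them leaves out 0, and Esr1, drawn as a square, is the single gene past the adjusted test.

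Nr1h3 (chr2:91184061-91202829) had the difference closest to 0 among the 9 and the widest gap between replicates. Its product LXRα is switched on by oxysterols and raises genes of cholesterol efflux and fatty acid synthesis. Nr1h3 was at 7.45 and 7.43 in the Id2 KO-labelled arrays, against 7.25 and 7.62 in WT. Both Id2 KO values lay between the WT values (difference 0.0051, 95% interval -0.26 to 0.27, adjusted p = 0.989). The difference was -0.18 without WT replicate 1 (adjusted p = 0.588) and 0.19 without WT replicate 2 (adjusted p = 0.411). Of 11 red pulp macrophage markers 9 were also higher in WT replicate 2 than in WT replicate 1, by a median of 0.35 over the 11. The same held for all 8 measured T and NK cell markers (median 0.059). It held for 8 of 12 neutrophil, 6 of 10 B cell and 4 of 10 cDC2 markers (medians 0.0421, 0.0875 and -0.023). It also held for 5 of 9 monocyte and 5 of 8 conventional dendritic cell markers (medians 0.0605 and 0.0039). For type 1 conventional dendritic cells (cDC1) it was 3 of 7, for plasmacytoid dendritic cells 2 of 7 and for erythroid cells 1 of 4. Their medians were -0.0265, -0.0219 and -0.0736. The share of all genes that were higher in WT replicate 2 was not counted. The part of any of these cells in the Nr1h3 values was not tested.

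Genes that LXRs are known to induce passed in both directions. Of 17 listed targets 16 were measured and 10 tested, with a median difference of -0.0092. Of the 10, 2 rose, 1 fell and 7 did not pass, beside 5.53% higher and 2.52% lower of all tested genes. The unadjusted p was below 0.05 in 4 of the 10, beside 20.7% of all tested genes. Groups did not overlap in 5 of the 10, beside 50.7% of all tested genes. Scd1, which encodes a desaturase that makes monounsaturated fatty acids, was at 7.72 and 7.85 in the Id2 KO-labelled arrays, against 6.51 and 6.80 in WT. It rose by 1.13 (95% interval 0.88 to 1.37, adjusted p = 3.26e-04), and its WT mean of 6.66 ± 0.20 (SD, n = 2) lay below the filter level. Apoe, which encodes a lipoprotein that takes up effluxed cholesterol, was at 10.39 and 10.55 in Id2 KO, against 9.65 and 9.64 in WT. It rose 1.77-fold (difference 0.82, 95% interval 0.63 to 1.02, adjusted p = 5.02e-04). Pltp, which encodes the phospholipid transfer protein, was at 9.65 and 9.43 in Id2 KO, against 10.19 and 10.43 in WT. It fell by 0.77 (95% interval -1.02 to -0.52, adjusted p = 0.00274). In these 3 genes the groups did not overlap, and their calls held under every alternative run on them. Other targets did not pass. Abcg1, an efflux transporter gene, was at 8.72 and 9.09 in Id2 KO, against 8.96 and 9.15 in WT, and Mylip, which encodes a ligase that removes the LDL receptor, was at 10.42 and 10.86 in Id2 KO, against 10.68 and 10.80 in WT. Both overlapped between the groups. The main efflux transporter gene Abca1 had a mean below the filter and was at 6.69 and 6.78 in Id2 KO, against 6.71 and 6.73 in WT. Srebf1, the lipogenic factor gene, differed by 0.16 (adjusted p = 0.326) and Smpdl3a, a phosphodiesterase gene, by -0.21 (adjusted p = 0.17). Cd5l and Mertk, LXR targets that are also 2 of the 11 macrophage markers, had means below the filter and differed by -0.62 and -0.63 (adjusted p = 0.0484 and 0.0332 without a filter).

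Enzymes that make or remove oxysterols and vitamin D did not pass. Of 10 listed 9 were measured and 4 tested, and 0 changed in limma in either direction, with a median difference of -0.12. Of the 4, 2 had an unadjusted p below 0.05, beside 20.7% of all tested genes. Cyp27a1, whose enzyme makes an oxysterol ligand of LXRs, was at 10.80 and 11.10 in Id2 KO, against 11.19 and 11.22 in WT. It was lower without overlap (difference -0.25, adjusted p = 0.221), and passed without Id2 KO replicate 2 (-0.40, adjusted p = 0.0298). Sult2b1, a sterol sulphotransferase gene, was at 7.03 and 6.99 in Id2 KO, against 6.77 and 6.86 in WT (difference 0.19, adjusted p = 0.22). Cyp46a1, a cholesterol hydroxylase gene, differed by -0.20 (adjusted p = 0.282).

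Pparg and Vdr were dim on every array. Pparg (chr6:115360879-115490404), whose product senses fatty acids and raises lipid uptake and storage genes, was at 5.995 and 6.17 in the Id2 KO-labelled arrays, against 6.22 and 6.07 in WT. Vdr (chr15:97854427-97908296), the receptor gene for the active form of vitamin D, was at 6.19 and 6.32 in Id2 KO, against 6.25 and 6.31 in WT. In each gene the groups overlapped, and the differences in the fit without a filter were -0.065 for Pparg (95% interval -0.29 to 0.16, adjusted p = 0.845) and -0.028 for Vdr (95% interval -0.23 to 0.17, adjusted p = 0.938). At such levels an array can understate a difference. Ppard, the PPAR gene that passed the filter, was at 8.68 and 8.60 in Id2 KO, against 8.64 and 8.65 in WT (difference -0.0059, 95% interval -0.19 to 0.18), whereas Ppara lay below the filter.

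Of 17 listed PPAR target genes 15 were measured and 9 tested, with a median difference of 0.059. Of the 9, 0 rose, 1 fell and 8 did not pass, beside 8.04% of all tested genes that passed. The unadjusted p was below 0.05 in 4 of the 9, beside 20.7% of all tested genes. Groups did not overlap in 5 of the 9, beside 50.7% of all tested genes. Plin2, which encodes a lipid droplet coat protein, was at 8.78 and 8.69 in the Id2 KO-labelled arrays, against 9.18 and 9.35 in WT. It fell by 0.53 (1.45-fold lower, 95% interval -0.74 to -0.33, adjusted p = 0.0069), a call lost without WT replicate 2 (-0.45, adjusted p = 0.0601). Fabp5, a fatty acid carrier gene, was at 8.84 and 8.64 in Id2 KO, against 8.44 and 8.29 in WT, higher without overlap (difference 0.37, adjusted p = 0.0548). These values are from the brighter of its 2 probe sets, and the mean of the 2 differed by 0.39 (limma, adjusted p = 0.045). Fabp5 passed under 6 of 14 alternatives. The mitochondrial β-oxidation genes Hadha and Acadl differed by 0.25 and 0.23 (adjusted p = 0.162 and 0.211), and Cpt1a, which encodes the enzyme that admits fatty acids to mitochondria, by -0.15 (adjusted p = 0.412). Fabp4 and Cd36, classical PPARγ targets, had means below the filter.

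Nr3c1, the glucocorticoid receptor gene, was at 8.47 and 8.47 in the Id2 KO-labelled arrays, against 8.35 and 8.43 in WT. Both Id2 KO arrays were slightly higher (difference 0.079, 95% interval -0.10 to 0.26, adjusted p = 0.653), by 0.042 without WT replicate 1 and by 0.031 with quantile normalization. Of 20 listed chaperones and targets of the receptor 19 were measured and 16 tested, with a median difference of -0.085. Of the 16, 0 rose, 3 fell and 13 did not pass, beside 5.53% higher and 2.52% lower of all tested genes. The unadjusted p was below 0.05 in 6 of the 16, beside 20.7% of all tested genes. Groups did not overlap in 13 of the 16, beside 50.7% of all tested genes. Anxa1, which encodes the anti-inflammatory protein annexin A1, was at 7.96 and 7.91 in Id2 KO, against 9.46 and 9.56 in WT. It fell by 1.57 (2.97-fold lower, 95% interval -1.76 to -1.38, adjusted p = 2.32e-05). Il1r2, which encodes a decoy receptor for interleukin 1, was at 10.56 and 10.45 in Id2 KO, against 10.92 and 10.95 in WT, and fell by 0.43 (adjusted p = 0.0127). Sgk1, a kinase gene, was at 8.67 and 8.42 in Id2 KO, against 9.02 and 9.02 in WT, and fell by 0.47 (adjusted p = 0.0187). The call of Anxa1 held under all 14 alternatives. Those of Il1r2 and Sgk1 were lost without WT replicate 1 and without WT replicate 2 (adjusted p up to 0.0833 and 0.114), and that of Sgk1 also without Id2 KO replicate 2.

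Other well-known targets of the glucocorticoid receptor did not pass. Tsc22d3, which encodes the glucocorticoid-induced leucine zipper protein, was at 8.76 and 8.76 in Id2 KO, against 8.90 and 8.77 in WT (difference -0.077, adjusted p = 0.68). Fkbp5, a chaperone gene that the receptor induces and that dampens it, was at 8.92 and 8.64 in Id2 KO, against 8.57 and 8.67 in WT, overlapping between the groups (difference 0.16, adjusted p = 0.453). Per1, a clock gene that it induces, differed by -0.020, and Dusp1, a phosphatase gene, by -0.085. Zbtb16, a zinc-finger factor gene, differed by -0.31 (adjusted p = 0.0641) and passed under 4 alternatives. The chaperone genes Hsp90aa1 and Stip1 differed by -0.25 and 0.24 (adjusted p = 0.148 and 0.28), and Stip1 passed without Id2 KO replicate 2. Hsd11b1, which encodes the enzyme that regenerates active glucocorticoid, had a mean below the filter and was at 5.72 and 5.86 in Id2 KO, against 6.58 and 6.42 in WT (difference -0.71, adjusted p = 0.0034 without a filter).

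Of the 6 windows of Sgk1, 1 has a match to the glucocorticoid element, and it is shown, with the match in capitals, because Sgk1 is a target that fell. Map3k6, another kinase gene, was the only other of the 16 genes of this list with promoter windows to hold a match.
Sgk1 (chr10:21993640-21993939, plus strand): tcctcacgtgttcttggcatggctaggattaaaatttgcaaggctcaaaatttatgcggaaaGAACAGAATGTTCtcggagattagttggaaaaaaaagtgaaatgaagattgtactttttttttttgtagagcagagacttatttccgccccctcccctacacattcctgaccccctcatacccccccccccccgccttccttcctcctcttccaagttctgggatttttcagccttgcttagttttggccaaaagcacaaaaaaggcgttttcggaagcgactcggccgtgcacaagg
The match reads GAACAGAATGTTC and begins 188 bases before that start site. Map3k6 differed by -0.084 and did not pass (adjusted p = 0.67).

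**Figure D3:**
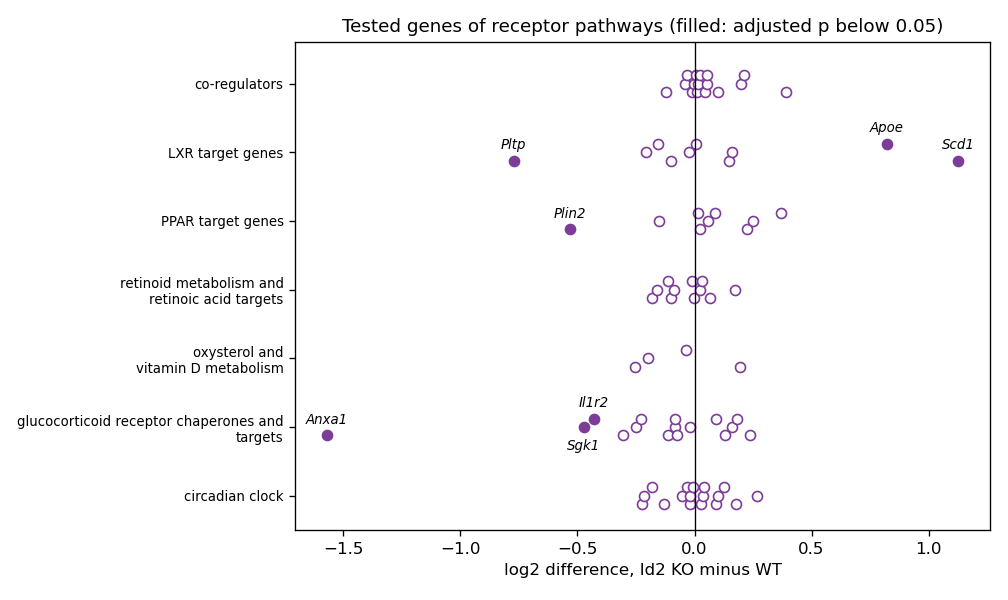
Log2 difference, Id2 KO minus WT (horizontal axis), of each tested gene in 7 pathway lists (rows), with genes past the adjusted test filled and named; a gene in several lists appears in each. The named genes are Pltp, Apoe, Scd1, Plin2, Anxa1, Sgk1 and Il1r2, and no co-regulator, retinoid, oxysterol or clock gene is filled.

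Among 49 listed mouse nuclear receptor genes, the 9 included, 45 were measured and 22 tested. Of the 22, 1 rose, 0 fell and 21 did not pass, beside 8.04% of all tested genes that passed. An unadjusted p below 0.05 was reached by 5 of the 22, beside 20.7% of all tested genes, and the median difference was -0.07. Esr1, which encodes oestrogen receptor α, was at 7.96 and 7.84 in the Id2 KO-labelled arrays, against 7.53 and 7.57 in WT. It rose by 0.35 (95% interval 0.16 to 0.54, adjusted p = 0.0376). Its call was lost with the replicate block (adjusted p = 0.0976), with no filter, with arrays centred on the tested genes, and without WT replicate 1, WT replicate 2 or Id2 KO replicate 1, with the adjusted p reaching 0.234. Nr4a2, an early response receptor gene, was at 12.19 and 11.81 in Id2 KO, against 12.37 and 12.35 in WT (difference -0.36, adjusted p = 0.122), and passed without Id2 KO replicate 1 (-0.55, adjusted p = 0.00731). Nr2c2, an orphan receptor gene, was at 9.83 and 9.92 in Id2 KO, against 9.56 and 9.72 in WT (difference 0.24, adjusted p = 0.167).

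No co-regulator gene passed. Of 20 listed 18 were measured and 16 tested, and 0 passed in limma, with a median difference of 0.02. Of the 16, 2 had an unadjusted p below 0.05, beside 20.7% of all tested genes. Hdac3, the deacetylase gene of the corepressor complex that REV-ERBs recruit, was at 9.09 and 8.91 in the Id2 KO-labelled arrays, against 8.49 and 8.72 in WT. It was higher without overlap (difference 0.39, 95% interval 0.15 to 0.63, adjusted p = 0.0591) and passed under 3 of 14 alternatives. Ncoa4, a coactivator and ferritin receptor gene, differed by 0.20 (adjusted p = 0.225) and Prmt1, a methyltransferase gene, by 0.21 (adjusted p = 0.295).

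**Figure D4:**
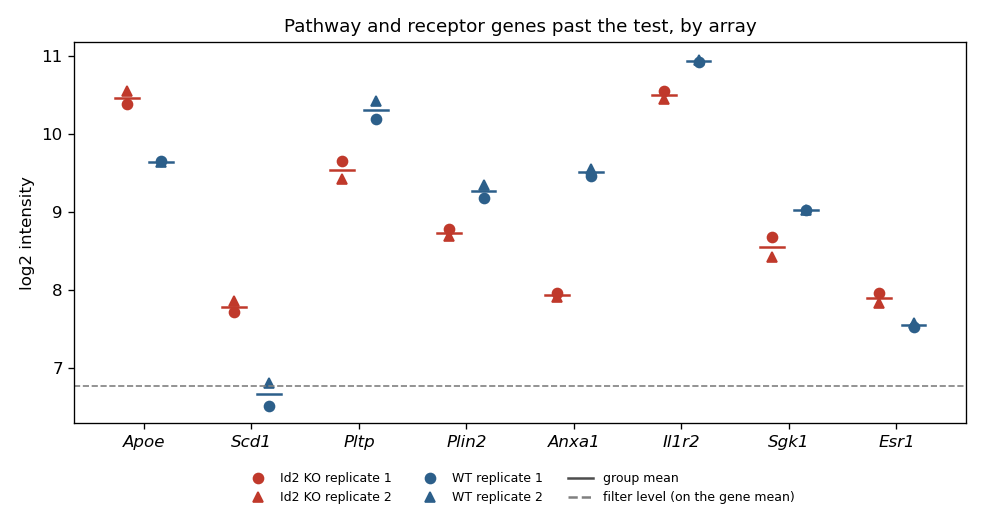
Log2 intensity (vertical axis) on each array of the 8 pathway and receptor genes past the adjusted test, Id2 KO in red left of WT in blue, with group means as short lines and the filter level dashed. In each of the 8 the groups do not overlap, and for Scd1 the WT mean lies below the filter level of 6.77.

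Markers of other cells differed between the same arrays as these targets. Over all tested genes the groups did not overlap in 50.7%, the share beside which the counts without overlap below stand. All 12 neutrophil markers were lower in both Id2 KO arrays, where their summed linear intensity was 1516 and 2429, against 17890 and 18540 in WT. Of 11 red pulp macrophage markers 10 were lower without overlap, with sums of 2528 and 2608 in Id2 KO, against 3458 and 3939 in WT. Of 10 measured B cell markers 9 were higher without overlap, with sums of 2766 and 3212 in Id2 KO, against 1470 and 1446 in WT. Of 7 measured plasmacytoid dendritic cell markers 4 rose, beside 5.53% of all tested genes. They were Ly6d, Spib, Siglech and Pacsin1 (by 1.31, 1.07, 0.56 and 0.34). Tcf4, Ccr9 and Bst2 did not pass (differences -0.070, -0.16 and 0.043, limma, adjusted p = 0.686, 0.502 and 0.887), and Tcf4 was lower without overlap. The 7 had sums of 2891 and 2690 in Id2 KO, against 2367 and 2323 in WT. The call of Siglech was lost without WT replicate 2 (adjusted p = 0.0561), and that of Pacsin1 on leaving out each of the 4 arrays in turn (adjusted p up to 0.179). All 4 measured erythroid markers were lower without overlap, with sums of 466.6 and 476.2 in Id2 KO, against 717 and 697.3 in WT. Among 7 cDC1 markers 6 were lower without overlap. In limma 1 of the 4 tested fell and 3 did not pass, beside 2.52% lower of all tested genes. Among 8 measured T and NK cell markers 4 were lower and 1 higher without overlap. In limma 1 of the 5 tested fell and 4 did not pass, beside the same 2.52%. The 10 cDC2 markers had sums of 12020 and 12500 in Id2 KO, against 15920 and 15500 in WT. The brightest genes of a list weigh most in its sum. In the cDC2 sums these are Sirpa and Cd209a, which did not pass. In the plasmacytoid dendritic cell sums they are Bst2 and Tcf4, which did not pass either. Of 9 measured monocyte markers 6 did not overlap, 5 lower and 1 higher, beside the 50.7% of all tested genes. The 9 had sums of 11100 and 11080 in Id2 KO, against 12040 and 13090 in WT. Most of each sum is Nr4a1, a nuclear receptor gene at log2 13.05 and 13.02 in Id2 KO, against 13.10 and 13.24 in WT. Nr4a1 did not pass (limma, adjusted p = 0.437), so these sums say little about the other monocyte markers. Of the 6 tested, 3 did not pass and 3 fell, namely Chil3, Cd14 and Lyz2 (differences -2.019, -0.8805 and -0.7157). No marker is at 0 on any array, and neither is any other probe set. The lowest intensities were 5.217 and 5.498 in Id2 KO, against 5.189 and 5.461 in WT. A level above 0 therefore does not show that a cell type was present. The part of these cells in the values of Anxa1, Il1r2, Sgk1, Pltp, Plin2, Apoe, Scd1 and Esr1 was not tested, and in such bulk samples fewer cells of a type and less RNA per cell cannot be told apart.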

How the data were processed

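The authors deposited intensities on a linear scale, 1 value for each of 28853 probe sets on each of 4 arrays. Per the labels' protocols, spleen cells were sorted by flow cytometry and their RNA was amplified with the NuGen Ovation PicoSL kit. Per the submitters' processing notes, Affymetrix Expression Console and RMA were used, without version or order. RMA normally ends on the log2 scale, and whether the authors reversed that is not given in the sources used here, nor is a genome build.

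Here log2 was taken of each deposited intensity, with no pseudocount. In the array's annotation, 21789 probe sets had 1 symbol, 1621 had several and 5443 were not listed. The brightest probe set with 1 symbol stood for its gene. Fabp5, Ncoa4 and Ciart each had 2 such probe sets, and Hsp90aa1 had 3. Where the probes of these genes lie is not given in the sources used here. Genes above the 40th percentile of mean log2 intensity were tested, Id2 KO minus WT, with limma 3.58.1 (R 4.3.3; lmFit, then eBayes; two-sided, Benjamini-Hochberg, 0.05, 2 residual degrees of freedom and 6.77 prior ones). Precision is limited by the number of arrays.

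The 9 receptors and all lists were chosen with earlier results of these data known. The rule named all 9 and, of each other list, genes past the threshold and up to 4 more with the largest differences. Arntl, Nfil3, Tgm2, Dhrs3, Rxrb, Abcg1, Mylip, Abca1, Srebf1, Ppard, Ppara, Cpt1a, Acadl, Fabp4, Cd36, Tsc22d3, Fkbp5, Per1, Dusp1, Stip1 and Map3k6 were added after their values were seen. Alternatives were other filters and scalings, averaging a gene's probe sets, a robust variance trend, replicate numbers as a block, and each array left out. Same-numbered arrays deviated from their group means with a correlation of -0.144, and no label pairs them, so no block was used.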

Additional observations from a re-analysis of the deposited data

How the results depend on the processing

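The count of changed genes among the 9 receptors was 0 under all 14 alternatives, and their lowest adjusted p was 0.0748, for Nr1d1 with arrays centred on the median of the tested genes (-0.27). Not every alternative tested all 9. Pparg and Vdr were tested only with no filter, and with the filter at the 60th percentile only Nr1d2, Rara and Nr3c1 of the 9 were tested. Centring on tested genes, centring on named genes and crossed replicate numbers were chosen after seeing the data. With arrays centred on the tested genes, Nr1h3 and Rora differed by -0.049 and -0.014, beside 0.0051 and 0.040 as reported, and over all genes 573 rose and 470 fell (54.9% of calls higher), beside 661 and 301 (68.7%) as reported. With single arrays left out, 459 to 1171 genes changed, 304 to 837 higher and 142 to 334 lower: without WT replicate 1 it was 459 (304 higher, 155 lower), and without WT replicate 2 it was 627 (142 lower), beside 962. With the replicate block 684 genes changed (479 higher, 205 lower), and 0 of the 7 receptors tested. Of the pathway genes named the block ended the call of Esr1 only, and of the markers named those of Clec4a2 and Pacsin1. With crossed replicate numbers 1380 changed. Pparg and Vdr are dim and no background signal is given beside them, which limits what their values can show.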

Other observations

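Cyp2r1, which encodes a vitamin D hydroxylase, had a mean below the filter and stood apart on Id2 KO replicate 1. It was at 7.08 and 6.30 in the Id2 KO-labelled arrays, against 6.07 and 5.97 in WT, and the difference of 0.67 was not past the threshold without a filter (adjusted p = 0.135). Cyp7b1, an oxysterol hydroxylase gene, was also below the filter, at 5.16 and 5.52 in Id2 KO, against 5.08 and 4.89 in WT (difference 0.36, adjusted p = 0.205 without a filter). Of the E protein genes, Tcf3 was at 9.18 and 9.04 in Id2 KO, against 8.96 and 9.10 in WT, Tcf4 at 9.32 and 9.32 in Id2 KO, against 9.40 and 9.38 in WT, and Tcf12 at 8.50 and 8.46 in Id2 KO, against 8.55 and 8.63 in WT. None of the 3 passed in limma (adjusted p = 0.677, 0.686 and 0.497).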
